A study of Drosophila melanogaster with 12 samples.

Results

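The vacuolar H+-ATPase (V-ATPase) genes of Drosophila melanogaster were followed in larval type II neuroblasts, the brain stem cells that divide through intermediate progenitors. They were taken as every row of the deposited gene count table whose symbol begins with Vha, which gave 33 genes of the 15339 in the table. The study took these cells when larvae were 24, 36, 50 or 84 h past hatching, and each of the 4 ages has 3 libraries, 12 in all. All groups shared a temperature of 25 °C, hatching within a short window, enzymatic dissociation of dissected brains, and sorting of GFP-labelled cells. Each library came from a pool of 93 to 132 sorted cells, and neither a genotype nor a driver of the GFP is stated by the labels. Whether same-age libraries came from separate dissections is not stated either, so the p-values measure the spread among the libraries alone, and part of it may be technical.

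The V-ATPase is a rotary proton pump of lysosomes, endosomes and secretory vesicles. Its V1 sector lies in the cytosol and hydrolyses ATP in a ring of A and B subunits, the D and F subunits turn as a central shaft, and the C, E, G and H subunits form or join the stalks that hold the ring still. Its V0 sector lies in the membrane, where a ring of c and c'' proteolipids turns against the large a subunit and carries the protons across, with d at the foot of the shaft and the small e subunit beside it. Pump activity is known to be needed for lysosomal degradation, for amino acid signalling to TORC1 and, in fly epithelia, for Notch receptor signalling. Several subunits have more than 1 gene in the fly genome, and some of those copies are known to be used mainly in particular tissues.

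The libraries held 4512098 to 8391731 counts on genes, with 8952 to 10797 genes detected, and counts are given below as CPM, gene counts scaled to 1000000 per library with TMM factors. Between 105.5 and 831.9 gene counts were obtained per count on the ERCC spike-in RNAs. The highest value belonged to 50 h replicate 1, and the next was 431.5. The type II neuroblast marker list, with 8 of 8 genes present, summed to 2562 to 4005 CPM. The hemocyte and fat body list stayed at or below 6.29 CPM. Among the glial markers, which summed to 166 to 206, 225 to 285, 210 to 237 and 99.2 to 106 CPM at the 4 ages in order, repo did not exceed 5.53 CPM and Eaat1 carried most of the sum. Markers of neurons, 12 of 14 present, summed to 754 to 1074, 680 to 868, 708 to 864 and 805 to 815 CPM, with elav at 165 to 351 CPM and the syntaxin gene Syx1A at 230 to 468 CPM. The other synaptic or transmitter genes of that list were lower, with cpx reaching 34.5, brp 24.2, Cha 19.1, Rab3 14.1, Syt1 9.03 and n-syb 6.61 CPM. The intermediate progenitor markers, 5 of 5 present, moved with age as a sum, at 36.6 to 39.9, 50.5 to 71.3, 86.8 to 107 and 32.5 to 56.6 CPM. The sum lay mostly in D and, at 84 h, in ey, while ase did not exceed 10.5, erm 3.14 and ham 3.07 CPM. Of these, D was 5.53-fold lower (adjusted p = 2.55e-05) and ey 9.06-fold higher (adjusted p = 0.000762) at 84 than at 24 h in edgeR's test. The part of all these lists in the results below was not tested.

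Transcripts for all 15 subunits and accessory proteins were found in the neuroblasts, mostly from 1 gene per subunit. Of the 33 genes, 23 passed the filter on low counts and were tested. The other 10 were at or near zero: Vha100-3, Vha14-2 and VhaM9.7-d had no count in any library, and Vha100-5, Vha16-2, Vha16-3, Vha16-4, Vha16-5, Vha36-2 and VhaAC39-2 had at most 9 counts in a library and at most 22 in total. A count of 0 allows up to 3 counts, or 0.357 to 0.665 CPM before TMM scaling, depending on the library. Together the Vha genes took 0.206% to 0.244% of the gene counts at 24 h, 0.190% to 0.212% at 36 h, 0.260% to 0.280% at 50 h, and 0.259% to 0.295% at 84 h. In this share the 50 and 84 h libraries lay above all 24 and 36 h libraries. It is taken before TMM scaling, whose factors were 0.799 to 0.959 at 24 h and 1.03 to 1.25 at 84 h. In the authors' TPM, described below, the Vha genes summed to 2156 to 2652, 2048 to 2123, 2585 to 2968 and 2737 to 2886 at the 4 ages in order. There 24 and 50 h overlapped. The 84 h libraries lay above all 24 and 36 h libraries, and the 50 h libraries above those of 36 h. On TPM the median of all tested genes also moved from 24 to 84 h, by 0.287 on the log2 scale. The sums were not tested, and a rise of the whole family was not shown.

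Levels are compared between genes in the authors' TPM, transcripts scaled to 1000000 per library, which are per length. The proteolipid gene Vha16-1 led, with a mean of 838 TPM over the 12 libraries, 33.5% of the TPM of all Vha genes. The order of mean levels went on with Vha26 (subunit E) at 292 TPM, Vha55 (B) at 212 TPM, Vha68-2 (A) at 170 TPM, VhaM8.9 at 139 TPM, VhaM9.7-b (e) at 117 TPM and VhaAC39-1 (d) at 106 TPM. These are mainly genes of the catalytic ring, a stator, the shaft's foot and the membrane sector. VhaPPA1-1 (c'') followed at 88.9 TPM, and the accessory gene VhaAC45 at 87.6 TPM. Vha44 (C), Vha13 (G), Vha100-2 (a), VhaSFD (H), Vha14-1 (F) and Vha100-1 (a) lay between 50.8 and 76.1 TPM. The low end held the D gene and the weaker copies of other subunits. There lay Vha36-1 (D) at 26.6 TPM, VhaM9.7-a and VhaM9.7-c (e) at 23.1 and 22.9 TPM, and Vha100-4, VhaPPA1-2, Vha36-3, Vha68-1 and Vha68-3 at 1.199 to 7.46 TPM.

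The rank of B and E changed with age. Vha26 stood at 355 ± 45.9 TPM and Vha55 at 140 ± 44.1 TPM at 24 h (SD, n = 3), and at 233 ± 21.5 and 322 ± 27.5 TPM at 84 h. Their libraries did not overlap at either age. At 50 h the ranges did overlap, at 246 to 274 TPM for Vha26 and 219 to 319 TPM for Vha55.

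**Figure D1:**
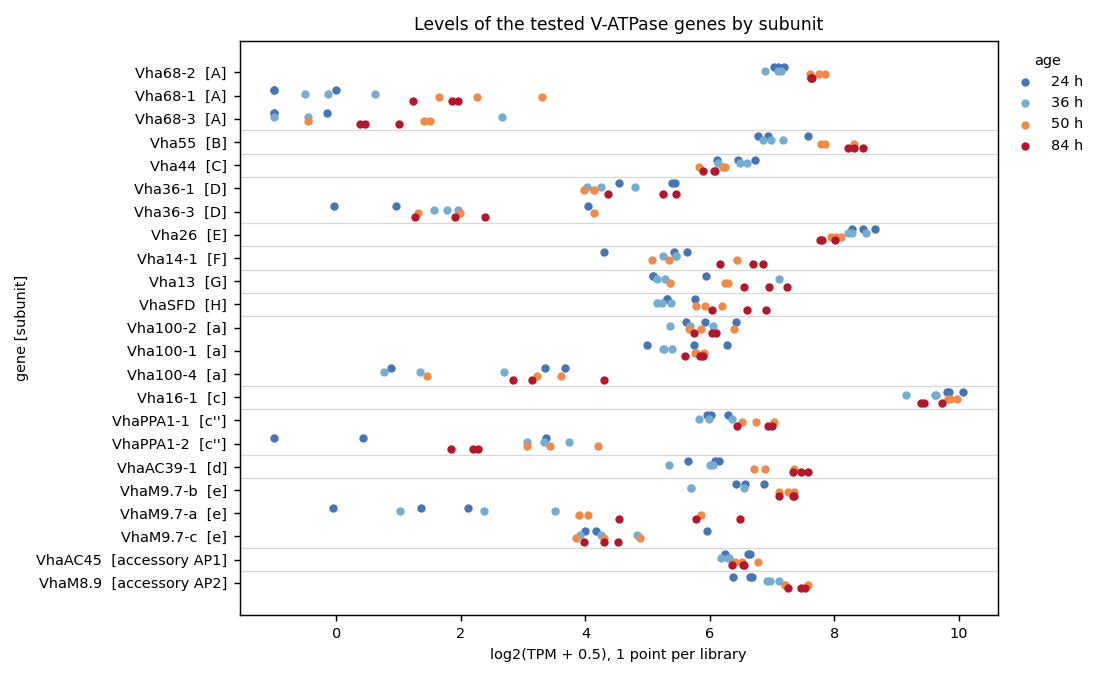
Levels of the 23 tested V-ATPase genes, with log2(TPM + 0.5) on the x axis, the genes grouped by subunit on the y axis, and 1 point per library coloured by age. Vha16-1 lies to the right of every other gene, and the weaker copies of subunits A, D, a, c'' and e mostly lie to the left of the leading copy, except for Vha100-1, which sits beside Vha100-2.

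Over the course some subunit genes rose and others fell. Between 24 and 84 h, 7 of the 23 tested genes rose and 3 fell (edgeR's quasi-likelihood test, Benjamini-Hochberg adjusted p under 0.05 over 7978 genes). Over all genes tested, 18.9% were called, 8.16% higher and 10.7% lower. Genes for B, d, G, H, an e copy, an A copy and the accessory protein VhaM8.9 rose, and genes for C, E and the c ring fell, though per ERCC count the last 3 had positive differences that were not called. The median log2 fold change was 0.36 over the 23 genes and 0.013 over all tested genes. The libraries of the 2 ages did not overlap for 15 of the 23 genes, against 33.4% of all genes tested. Vha68-1 reached the filter's level only in 50 and 84 h libraries, and VhaM9.7-a in those and in 1 of 36 h, so these 2 genes were tested because they were high there, and the counts are given as a description.

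Between neighbouring ages, the called steps lay between 36 and 50 h. In that interval 4 genes rose and 0 fell: Vha55, Vha68-2, VhaAC39-1 and VhaM9.7-b. Of all genes 4.25% were called, 1.88% higher and 2.37% lower. From 24 to 36 h 0 Vha genes passed edgeR's test, against 0.902% of all genes, and 4 had an unadjusted p under 0.05, against 14.7%. From 50 to 84 h 0 passed, against 3.06% of all genes, and 3 had an unadjusted p under 0.05, against 12.7%. DESeq2 and limma on TPM also called 0 in both of those intervals. A joint test of any difference between the 4 ages called 10 of the 23 genes, against 19.5% of all genes. Those 10 include Vha68-1 and VhaM9.7-a, which passed the filter through the ages at which they were high, so this count too is a description. The adjacent intervals share libraries and are not independent. Some markers of other cells moved in the same interval. The sums of the neuronal list, 680 to 868 and then 708 to 864 CPM, overlapped between 36 and 50 h. So did those of the glial list, 225 to 285 and then 210 to 237 CPM, which lay mostly in Eaat1. The 4 tested glial markers had a median log2 change of 0.62 over this interval, with 2 above 0 and 0 called. Changes were 2 for alrm, 1.27 for Gs2, -0.04 for moody and -0.30 for Eaat1. From 36 to 50 h the 10 tested neuronal markers had a median log2 change of 0.68, with 8 above 0 and 0 called (brp 2.47 ± 0.85, adjusted p = 0.113). The more abundant elav, Syx1A, onecut and fne changed by 0.17, 0.01, -0.14 and -0.26. The progenitor sum went from 50.5 to 71.3 CPM up to 86.8 to 107 CPM. This lay mostly in D (means 46.1 and 76.3 CPM) and ey (9.53 and 17.4 CPM). Of the same list, ase went from a mean of 7.69 to 4.11 CPM, erm from 0.131 to 0.668 and ham from 0.066 to 0.132. The part of these cells in the 4 rises was not tested.

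These counts leaned on single libraries. The count of 10 for 24 against 84 h became 4 without 84 h replicate 2 and 6 without 84 h replicate 3. Over all genes, 11.2% to 18.9% were called there with 1 library left out. The count of 4 for 36 against 50 h became 1 on leaving out replicate 1 or 2 of 36 h or replicate 2 of 50 h, and 2 on leaving out replicate 3 of 36 h. Over all genes, the range with 1 library left out was 1.86% to 5.29%. On TPM, limma called 10 Vha genes higher and 1 lower at 84 h, beside 1528 of 7876 genes in all, and the median of all genes moved by 0.29 on the log2 scale. Scaled to ERCC counts, the median of all genes moved by 1.48, and 11 Vha genes were called higher and 0 lower, beside 2377 of 7978 genes called in all. In pooled cells, fewer cells with a transcript and less of it per cell cannot be told apart.

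**Figure D2:**
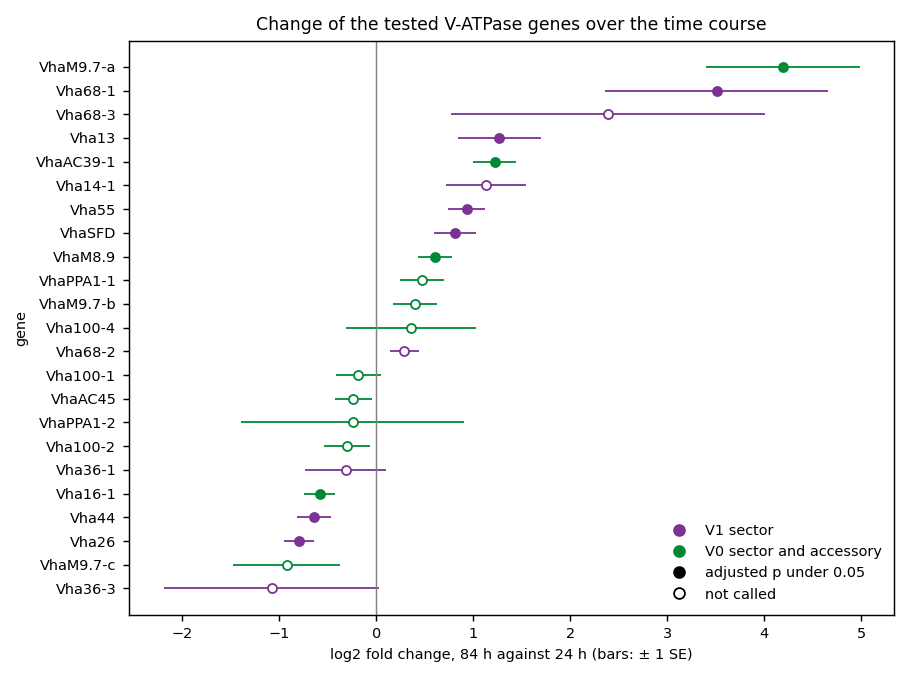
Log2 fold change from 24 to 84 h for the 23 tested genes (x axis, bars 1 SE), ordered by size, with V1 genes in purple and V0 and accessory genes in green, and filled points for adjusted p under 0.05 in edgeR's test. VhaM9.7-a (4.19) and Vha68-1 (3.51) stand at the top with wide bars, and the called falls of Vha16-1, Vha44 and Vha26 (-0.58, -0.64 and -0.80), which become 0.86, 0.86 and 0.59 per ERCC count, stand at the bottom.

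In the V1 sector, the transcript for the ring's B subunit rose. Vha55, the single gene for B, gave 144, 228.5 and 145 CPM at 24 h, 152, 167 and 136 at 36 h, 231, 336 and 236 at 50 h, and 318, 349 and 322 at 84 h. The 84 h libraries lay above all 24 and 36 h libraries, and 50 h replicate 2 stood above the other 50 h libraries. The gene was 1.91-fold higher at 84 than at 24 h (log2 0.93 ± 0.19 SE, adjusted p = 0.00118), and stayed called whichever library was left out. Most of this lay between 36 and 50 h, with a 1.77-fold rise (log2 0.82 ± 0.19, adjusted p = 0.0127). The step lost its call on leaving out replicate 1 (adjusted p = 0.05) or 3 (0.0688) of 36 h or replicate 2 (0.115) of 50 h, and per ERCC count (0.101). Per ERCC count its log2 size was 1.85, or 0.745 relative to the median gene.

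The leading A gene, which codes for the catalytic subunit that pairs with B, was called in 1 interval. Vha68-2 gave 168, 161 and 166 CPM at 24 h, 165, 134 and 155 at 36 h, 204, 227 and 232 at 50 h, and 209.7, 194 and 200.4 at 84 h. Its 50 and 84 h libraries lay above all younger ones. The rise from 36 to 50 h was 1.46-fold (log2 0.54 ± 0.15, adjusted p = 0.0416). It was lost when any of 9 libraries was left out, with adjusted p from 0.0575 to 0.234; those are the 3 libraries each of 36 and 50 h, 24 h replicate 1, and 84 h replicates 2 and 3. It was also lost with no filter (0.102), with the number of sorted cells in the model (0.0863) and per ERCC count (0.159). Per ERCC count the log2 size of the rise was 1.58, or 0.479 relative to the median gene. From 24 to 84 h the log2 difference was 0.29 ± 0.15, with adjusted p = 0.194, and it was called on TPM and per ERCC count.

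Of the stator genes, that for E fell and that for G rose, both relative to the median gene. Vha26, the single gene for E, gave 326, 338 and 368 CPM at 24 h, 297, 329.8 and 261 at 36 h, 212, 239 and 218 at 50 h, and 226, 184 and 183 at 84 h. Every library at 50 and 84 h lay below every library at 24 and 36 h. The fall to 84 h was 1.74-fold (log2 -0.80 ± 0.16, adjusted p = 0.000714), was called whichever library was left out, and per ERCC count became a difference of 0.59 (adjusted p = 0.405), which is -0.89 relative to the median gene.

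Vha13, the gene for G, which pairs with E in the peripheral stalks, gave 11.1, 10.3 and 17.5 CPM at 24 h, 11.6, 10.2 and 35.9 at 36 h, 20.2, 11.1 and 19.98 at 50 h, and 24.9, 37.3 and 31.3 at 84 h. All 84 h libraries lay above all 24 h libraries, while 36 h replicate 3 reached the 84 h range. The difference was 2.42-fold (log2 1.27 ± 0.42, adjusted p = 0.0383). The call was lost on leaving out 24 h replicate 1 (adjusted p = 0.0985) or replicate 2 (0.103), on leaving out 84 h replicate 2 (0.136) or replicate 3 (0.0891), and when sorted cell number entered the model (0.0801).

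C and H are the subunits that regulate how V1 is held on V0. Vha44, the gene for C, gave 128.5, 179 and 143 CPM at 24 h, 119, 156 and 139 at 36 h, 86.3, 113 and 111.5 at 50 h, and 92.04, 97.2 and 99.2 at 84 h. The 84 h libraries lay below all 24 h and 36 h libraries. The fall was 1.56-fold (log2 -0.64 ± 0.18, adjusted p = 0.0141), and per ERCC count it became a difference of 0.86 (adjusted p = 0.233), or -0.61 relative to the median gene. It was not called without 24 h replicate 2 (0.0708), without 84 h replicate 2 (0.0502) or on TPM (0.17).

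VhaSFD, the gene for H, went the other way, with 52.3, 65.7 and 47.1 CPM at 24 h, 50.1, 43.5 and 42.4 at 36 h, 78.2, 59.4 and 62.7 at 50 h, and 71.4, 119.8 and 98.99 at 84 h. The 3 libraries of 84 h lay above those of 24 h, and 84 h replicate 2 was the highest. The rise was 1.76-fold (log2 0.81 ± 0.22, adjusted p = 0.0108), and without 84 h replicate 2 it was not called (adjusted p = 0.101).

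No tested gene for a shaft subunit passed edgeR's test. Vha14-1, the expressed F gene, ranged from 6.13 to 13.8 CPM at 24 h and from 17.7 to 27.3 CPM at 84 h. Those ranges did not overlap, and the log2 difference of 1.13 ± 0.41 missed the threshold (adjusted p = 0.0591). Several alternatives did call it: DESeq2, limma on TPM, upper-quartile factors, the replicate block, leaving out 24 h replicate 2, and ERCC scaling (adjusted p = 0.0134). The D genes are described with the paralogs.

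**Figure D3:**
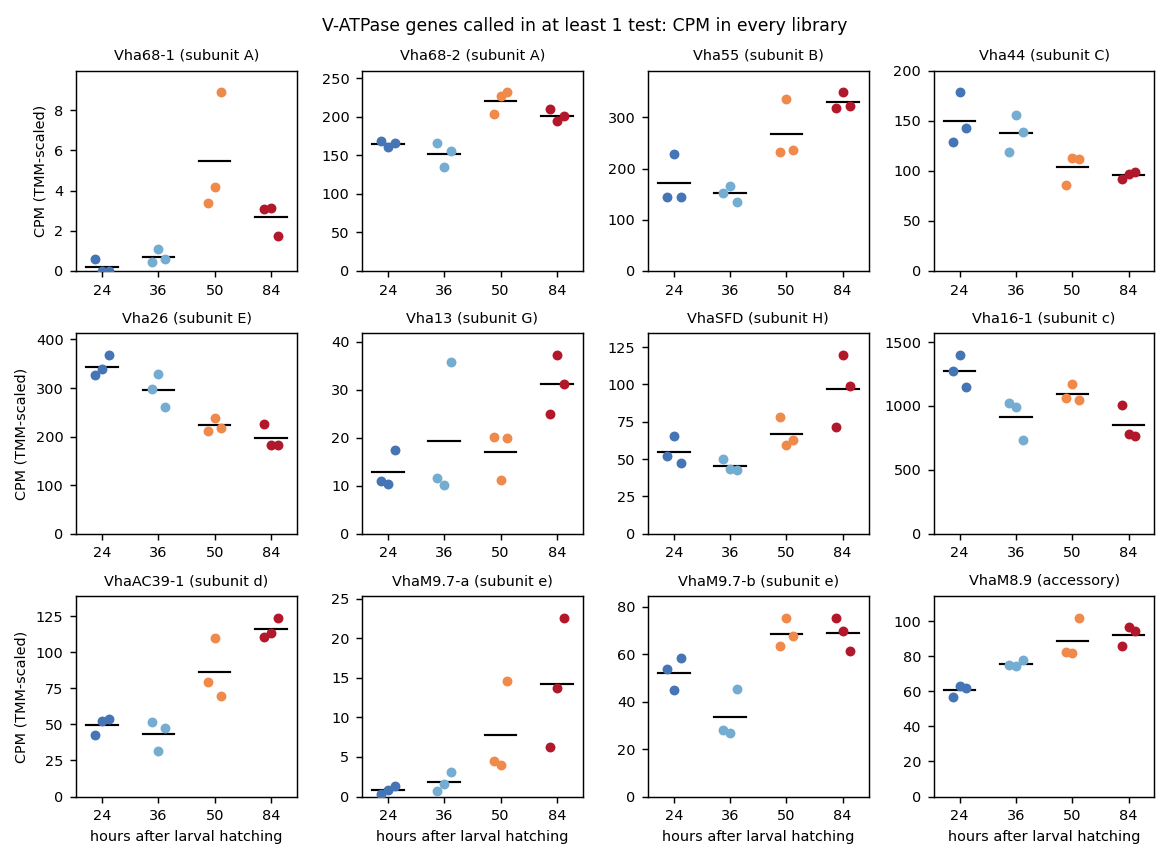
CPM (y axis, from 0, a separate scale in each panel) in every library for the 12 genes called in at least 1 test, at the 4 ages on evenly spaced x positions, with black lines for the means. Vha55 and VhaAC39-1 step up between 36 and 50 h, while Vha26 and Vha44 are lower at the 2 later ages; per ERCC count Vha26, Vha44 and Vha16-1 are not lower at 84 than at 24 h.

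In the V0 sector, the c ring gene fell and the d gene rose, both relative to the median gene. Vha16-1, the only expressed copy of the proteolipid c, gave 1275, 1400 and 1147 CPM at 24 h, 1021, 991 and 734 at 36 h, 1062, 1172 and 1045 at 50 h, and 1009, 778 and 764 at 84 h. All 24 h libraries lay above all libraries of 36 and 84 h, and 50 h replicate 2 reached into the 24 h range. The fall from 24 to 84 h was 1.50-fold (log2 -0.58 ± 0.16, adjusted p = 0.0134), and per ERCC count it became a difference of 0.86 (adjusted p = 0.232), or -0.62 relative to the median gene. On TPM (0.102), and on leaving out replicate 2 of 24 h (0.0548) or replicate 2 (0.0768) or 3 (0.0834) of 84 h, the fall lost its call. The other 4 c genes had 0 to 9 counts in a library.

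VhaAC39-1, the expressed gene for d, which couples the shaft to the ring, gave 42.7, 52.7 and 53.8 CPM at 24 h, 51.6, 31.3 and 47.3 at 36 h, 79.7, 110.2 and 69.4 at 50 h, and 110.5, 113 and 124 at 84 h. All 50 and 84 h libraries lay above all younger libraries, and the 84 h libraries above those of 50 h. The rise from 24 to 84 h was 2.33-fold (log2 1.22 ± 0.22, adjusted p = 0.000347) and was called whichever library was left out. Between 36 and 50 h it was 1.99-fold (log2 0.99 ± 0.22, adjusted p = 0.00926). That step was not called without 36 h replicate 2 (0.0986), without 50 h replicate 2 (0.0937) or per ERCC count (0.0806). Per ERCC count its log2 size was 2.02, or 0.916 relative to the median gene.

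Of the genes for accessory membrane proteins, 1 rose. VhaM8.9, the (pro)renin receptor homologue that is known to help assemble the pump, gave 56.6, 63.1 and 61.9 CPM at 24 h, 74.97, 74.4 and 77.7 at 36 h, 82.1, 82.04 and 102 at 50 h, and 85.5, 96.8 and 94.3 at 84 h. The 24 h libraries were the lowest and did not overlap with any later age. The difference between 24 and 84 h was 1.52-fold (log2 0.61 ± 0.18, adjusted p = 0.0183), but the call was lost on leaving out replicate 1 of 24 h (0.0658) or replicate 2 (0.0854) or 3 (0.0682) of 84 h, and the joint test over ages gave adjusted p = 0.0532. VhaAC45, the Ac45 homologue, stayed between 56.2 and 80.6 CPM in all libraries. Its log2 difference of -0.24 ± 0.19 was not called (adjusted p = 0.419).

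Paralogs of 1 subunit were compared within each library, as the log2 ratio of TPM + 0.5 to the copy with the highest mean. Subunits A, D, a, c'' and e had more than 1 tested gene, which gave 8 ratios. Each was tested over the 4 ages with an exact permutation test on the between-age sum of squares over 369600 assignments, for which 6.49e-05 is the smallest p. The p is the share of assignments with a sum of squares at least as large as the observed one. After adjustment over the 8 ratios, those of VhaM9.7-a and Vha68-1 were under 0.05 (adjusted p = 0.0244 for each). Both copies entered the test through libraries of the ages at which they were high, so these p-values are given as a description and do not support a change between ages; the other 6 ratios were not called. The deposited data do not say how reads shared between copies were counted, so small values of a copy beside an abundant one are uncertain. In a later genome annotation, Vha68-3 lies within 3 genes of Vha68-1 and of Vha68-2, which are not that close to each other. Vha100-2 and Vha100-4 lie within 3 genes of each other, as do VhaPPA1-1 and VhaPPA1-2.

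For the small subunit e, 3 copies were tested. VhaM9.7-b, the leading copy, gave 53.8, 44.7 and 58.2 CPM at 24 h, 28.03, 26.7 and 45.1 at 36 h, 63.4, 75.1 and 67.4 at 50 h, and 75.4, 69.9 and 61.5 at 84 h. Its 36 h libraries were lowest, with 36 h replicate 3 inside the 24 h range, and all 50 h libraries lay above all 36 h ones. The rise from 36 to 50 h was 2.06-fold (log2 1.04 ± 0.23, adjusted p = 0.00888). It was not called without 36 h replicate 1 (0.0607), without 36 h replicate 2 (0.0813) or per ERCC count (0.0871). Per ERCC count its log2 size was 2.04, or 0.935 relative to the median gene.

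VhaM9.7-a began near zero, with 0.299, 0.768 and 1.28 CPM at 24 h, 0.667, 1.52 and 3.15 at 36 h, 4.52, 3.99 and 14.6 at 50 h, and 6.19, 13.7 and 22.6 at 84 h. All 50 and 84 h libraries lay above all 24 and 36 h libraries, with a wide spread within each later age. The 24 h values rest on 2, 5 and 6 counts. The fitted difference between 24 and 84 h was 18.2-fold (log2 4.19 ± 0.79, adjusted p = 0.00059) and was called whichever library was left out. Because the gene passed the filter through older libraries, this p is a description; with no filter it was 2.01e-06 after adjustment. Its mean share of the subunit's TPM went from 1.54% ± 1.21 at 24 h to 5.85% ± 3.61, 14.0% ± 10.2 and 23.5% ± 12.4 at 36, 50 and 84 h (SD, n = 3).

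The log2 ratio of VhaM9.7-a to VhaM9.7-b was -5.48 ± 1.00, -3.67 ± 0.88, -2.64 ± 1.09 and -1.66 ± 1.09 at the 4 ages (SD, n = 3; exact permutation p = 0.00519). Leaving out 1 library at a time gave adjusted p from 0.0286 to 0.0999, under 0.05 only where replicate 3 of 36 h, replicate 3 of 50 h or replicate 1 of 84 h was left out. On CPM in place of TPM, the change of this ratio from 24 to 84 h was 3.02 and not 3.82 (adjusted p = 0.0447).

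The third e copy was not called. VhaM9.7-c gave 6.87, 21.96 and 5.55 CPM at 24 h, 9.79, 5.001 and 6.11 at 36 h, 6.13, 9.23 and 4.35 at 50 h, and 5.16, 6.91 and 6.08 at 84 h. Apart from 24 h replicate 2, which stood far above the rest, the ages overlapped. Its mean share of the subunit's TPM was 22.8% ± 16.3, 23.4% ± 9.96, 10.4% ± 3.95 and 8.29% ± 0.996 at the 4 ages (SD, n = 3). At 24 h the share ran from 11.4% to 41.5%. Its ratio to VhaM9.7-b was not called (adjusted p = 0.295, exact permutation test).

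Transcripts for the catalytic A subunit came almost wholly from Vha68-2, at 96.9% to 99.8% of the subunit's TPM in the mean of each age. Vha68-1 gave 0.598, 0 and 0 CPM at 24 h, 0.445, 1.09 and 0.591 at 36 h, 3.39, 4.196 and 8.9 at 50 h, and 3.097, 3.16 and 1.74 at 84 h. At 24 h it had 4 counts in replicate 1 and none in the others, and all 50 and 84 h libraries lay above all younger ones. The fitted difference between 24 and 84 h was 11.4-fold (log2 3.51 ± 1.15, adjusted p = 0.0358), a size that rests on those 4 counts: on log2(TPM + 0.5) it was 2.35 (adjusted p = 0.0171). Without 24 h replicate 1, which leaves no count at 24 h, the fitted log2 value of 6.87 (adjusted p = 0.00822) is no estimate of size. As the gene passed the filter only through 50 and 84 h libraries, this p too is a description; with no filter the adjusted p was 0.0371. The difference was not called in 8 other fits with a library left out, namely 24 h replicates 2 and 3 and each 50 and 84 h library (adjusted p 0.0506 to 0.102), nor with the 24 and 84 h libraries alone (0.0798).

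The log2 ratio of Vha68-1 to Vha68-2 was -7.77 ± 0.64, -7.04 ± 0.70, -5.34 ± 0.73 and -5.95 ± 0.41 at the 4 ages (SD, n = 3; exact permutation p = 0.0061). It was called only where replicate 1 of 24 h or replicate 2 or 3 of 36 h was left out, and leaving out any of the other 9 libraries gave adjusted p from 0.0504 to 0.0795. Its change from 24 to 84 h moved with the pseudocount, from 3.42 at 0.1 to 1.18 at 1, beside 1.82 at 0.5. Vha68-3 gave 0.448, 0 and 0 CPM at 24 h, 5.78, 0.217 and 0 at 36 h, 1.94, 2.098 and 0.198 at 50 h, and 1.38, 0.751 and 0.695 at 84 h. Only 36 h replicate 1 stood out, with 26 counts, and the ratio was not called (adjusted p = 0.808).

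Transcripts for the a subunit, which sets where the pump is sent, came mainly from 2 genes at every age. Vha100-2 gave 127, 66.96 and 78.7 CPM at 24 h, 56.7, 66.97 and 81.02 at 36 h, 70.3, 101 and 60.3 at 50 h, and 66.2, 74.7 and 79.7 at 84 h. Vha100-1, known in flies as the neuronal a subunit of synapses, gave 48.1, 107.5 and 72.1 CPM at 24 h, 52.7, 55.01 and 51.1 at 36 h, 68.7, 67.1 and 70.6 at 50 h, and 74.3, 57.1 and 68.6 at 84 h. Each gene had 1 high library at 24 h, replicate 1 for Vha100-2 and replicate 2 for Vha100-1, and the 36 h libraries of Vha100-1 lay just below those of 50 and 84 h. Vha100-1 made up 41.9%, 41.7%, 44.8% and 42.7% of the subunit's TPM in the means of the 4 ages. The age means of its log2 ratio to Vha100-2 lay between -0.40 and -0.15 (adjusted p = 0.952, exact permutation test). Single libraries ran from -1.43 in 24 h replicate 1 to 0.66 in 24 h replicate 2. The neuronal marker list was also highest in the library with the most Vha100-1, at 1074 CPM, and so was Syx1A, at 468 CPM, while cpx was at 25.8, n-syb at 0.768 and Syt1 at 0.307 CPM there. The part of neurons in the level of Vha100-1 was not tested.

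Vha100-4 gave 1.79, 14.1 and 10.9 CPM at 24 h, 1.56, 6.52 and 3.94 at 36 h, 9.36, 11.96 and 2.37 at 50 h, and 8.77, 6.61 and 18.9 at 84 h. It varied as much within as between ages, and neither its level from 24 to 84 h (adjusted p = 0.762) nor its ratio to Vha100-2 (0.717) was called.

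Transcripts for the c'' subunit came mainly from VhaPPA1-1, which gave 39.3, 37.9 and 44.2 CPM at 24 h, 33.4, 35.4 and 44.4 at 36 h, 47.6, 67.1 and 53 at 50 h, and 45.8, 61.9 and 60.96 at 84 h. Its 50 and 84 h libraries lay above all younger ones, and the log2 difference of 0.48 ± 0.23 from 24 to 84 h was not called by edgeR (adjusted p = 0.152), but was on TPM and per ERCC count. VhaPPA1-2 gave 2.84, 0 and 0.213 CPM at 24 h, 3.34, 1.96 and 2.37 at 36 h, 2.42, 4.196 and 1.78 at 50 h, and 1.03, 0.902 and 0.695 at 84 h. The 24 h libraries disagreed, with 19, 0 and 1 counts, and the 84 h libraries lay below those of 36 and 50 h. The ratio of the 2 genes was not called (adjusted p = 0.279), but became called without 24 h replicate 1 (0.00208).

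For the shaft subunit D, Vha36-1 gave 20.6, 10.6 and 18.8 CPM at 24 h, 7.34, 8.26 and 11.8 at 36 h, 7.26, 6.504 and 6.92 at 50 h, and 8.602, 16.7 and 14.8 at 84 h, and the 50 h libraries were the lowest. Vha36-3 gave 0.747, 7.53 and 0.213 CPM at 24 h, 1.56, 1.09 and 1.58 at 36 h, 1.45, 7.13 and 0.791 at 50 h, and 1.38, 0.751 and 1.91 at 84 h. The libraries 24 h replicate 2 and 50 h replicate 2 held most of its counts, and no other library passed 1.91 CPM. Vha36-1 had adjusted p = 0.117 over the 4 ages, and was called by DESeq2 and without 24 h replicate 2, and the ratio of the D copies was not called (0.717).

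**Figure D4:**
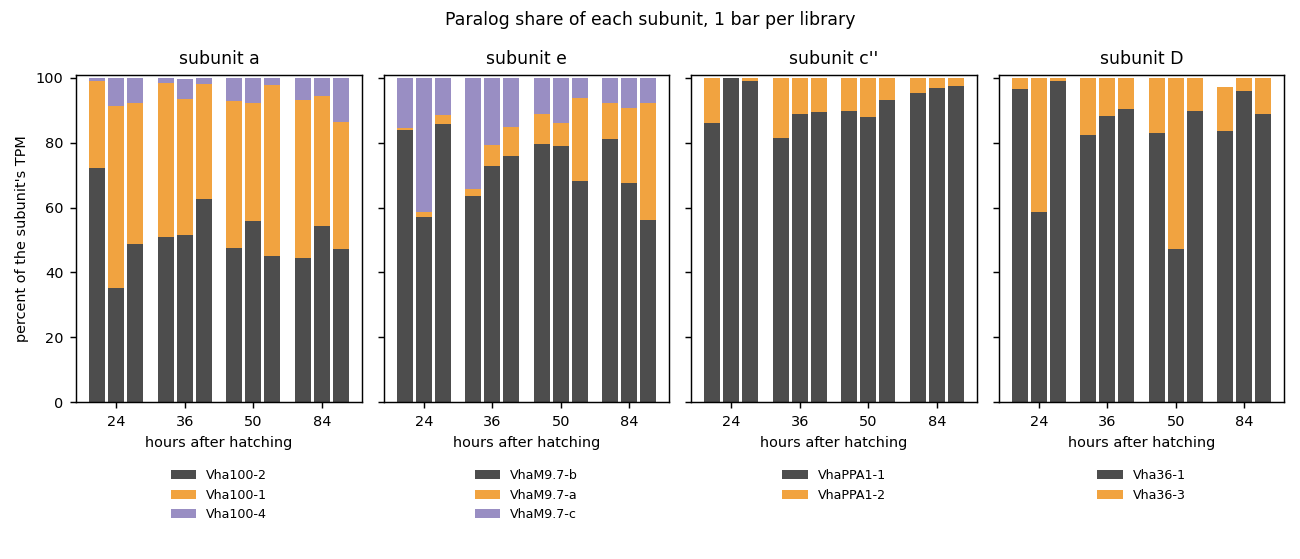
Share of each subunit's TPM (y axis, percent) held by each tested copy, for subunits a, e, c'' and D, with 1 bar per library grouped by age. Only tested copies are drawn, so a bar that stops short of the top holds an untested copy. VhaM9.7-a holds a mean of 1.54% of subunit e at 24 h and 23.5% at 84 h, and Vha100-1 and Vha100-2 share subunit a at every age.

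Genes that work with the pump were looked at in lists, to be read against the 18.9% of all genes called between 24 and 84 h. For the assembly and regulation genes Rbcn-3A, Rbcn-3B and mtd, 0 of 3 were called between 24 and 84 h in edgeR's test. Their median log2 change was -0.20, beside 0.013 over all genes. Among 9 tested lysosomal genes, 1 rose and 1 fell, with a median of 0.19, and DESeq2 and limma on TPM each called 3. In the list of Rag, Ragulator and Mitf genes 4 of 11 symbols matched the table and none of them was a Rag gene. Its 3 tested genes, Mitf, CG14184 and CG5110, gave 0 calls with a median of -0.65, and Mitf, the fly homologue of the factor that drives lysosomal genes in mammals, had a log2 difference of -0.65 ± 0.24 (adjusted p = 0.0635). For HOPS and late endosome genes 0 of 5 were called, with a median of -0.21, and for autophagy genes 1 of 11 was called, lower, with a median of -0.23, while DESeq2 called 3 and limma on TPM 1. Of the lists with 0 calls, those of assembly and regulation genes and of HOPS and late endosome genes also had 0 genes with an unadjusted p under 0.05 and 0 called by DESeq2 or by limma on TPM. The list with Mitf had 1 with an unadjusted p under 0.05, 1 called by DESeq2 and 0 by limma on TPM.

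Lamp1, a lysosomal membrane glycoprotein, gave 48.2, 50.2 and 43.3 CPM at 24 h, 42.7, 49.1 and 73.5 at 36 h, 68.7, 63.8 and 73.8 at 50 h, and 87.4, 96.8 and 84.2 at 84 h. The 84 h libraries lay above all others, and the rise from 24 h was 1.89-fold (log2 0.92 ± 0.21, adjusted p = 0.00334), called whichever library was left out. The lysosomal transporter gene spin gave 125, 182 and 101 CPM at 24 h, 88.1, 71.1 and 84.2 at 36 h, 74.2, 78.5 and 112 at 50 h, and 95.1, 62.96 and 62.4 at 84 h. All 24 h libraries lay above those of 84 h, 24 h replicate 2 the most. The fall was 1.86-fold (log2 -0.89 ± 0.23, adjusted p = 0.00819), and per ERCC count it became a difference of 0.57 (0.431). Leaving out replicate 2 of 24 h (0.064), or replicate 2 (0.0516) or 3 (0.0536) of 84 h, ended the call, as did testing on TPM (0.0813).

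Atg8a, the ubiquitin-like protein that coats autophagosomes, gave 224.5, 187 and 177.5 CPM at 24 h, 151, 153 and 125 at 36 h, 129, 152 and 121 at 50 h, and 142.5, 119.9 and 120.2 at 84 h. Its 24 h libraries lay above all others. The fall to 84 h was 1.54-fold (log2 -0.62 ± 0.17, adjusted p = 0.0106), and per ERCC count it became a difference of 0.83 (0.245). Leaving out replicate 1 of 24 h (0.0561), or replicate 2 (0.0599) or 3 (0.0583) of 84 h, ended the call.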

How the data were processed

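The authors deposited 1 table of raw counts per gene and ERCC RNA, with no scaling, and 1 table of TPM computed by the authors; both cover the 12 libraries. Per the submitters' processing notes, HTSeq 0.6.1p1 was among the tools, with the aligners STAR 2.4.0i and Bowtie2 2.1.0, the trimmer cutadapt 1.7.1 and CASAVA; BDGP5, dm3 and mm10 are named as builds, without roles. No source used here gives the strand setting or says how reads shared between genes were counted. Per the labels' protocols, RNA was amplified before library construction, so counts are not independent molecules, and floors cover counting error only.

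A single unnamed row with 10 counts was left out, and 92 ERCC rows were used only for the spike-in alternative. Counts were tested in R 4.3.3 with edgeR 4.0.16 (TMM, filterByExpr by age, robust quasi-likelihood fit over all 12 libraries, Benjamini-Hochberg adjustment over the 7978 genes kept, which hold 99.85% of gene counts). The fit had 8 residual degrees of freedom and a biological coefficient of variation of 36.2%. CPM are gene counts per 1000000 after TMM scaling. Paralogs were compared in TPM with a pseudocount of 0.5. Alternatives were RLE and upper-quartile factors, ERCC totals, no filter, DESeq2 1.42.0, limma 3.58.1 on log2(TPM + 0.5), a replicate block, sorted cells as a covariate, the compared ages alone and each library left out. The procedures were tested on simulated data.

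Within ages, libraries differed by more than sampling noise (chi-square per degree of freedom 10.7 to 48.1), and each was counted as its own replicate. Values in every library are given for Vha genes called in any test and for tested copies of a subunit with more than 1 tested gene; other Vha genes are given by ranges, and pathway genes by counts, with values where called. Mitf was named after its values were seen. The members and lists were chosen with earlier results of these data known. In the BDGP6 annotation, which is not the build of the files, 28 of the 33 genes matched by identifier and 5 by symbol. None of the 33 shared exonic bases with a gene on the same strand, and the 4 tested genes that did with a gene on the opposite strand shared at most 3.68% of their exonic length.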

Additional observations from a re-analysis of the deposited data

How the results depend on the processing

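Of 27 calls of single genes, set against 557 alternatives in all, 469 kept direction and side of the threshold, 83 lost the call and 5 reversed. The 5 were the falls from 24 to 84 h of Vha16-1, Vha26, Vha44, spin and Atg8a, which became 0.857, 0.588, 0.865, 0.574 and 0.834 on the log2 scale per ERCC count; every value lay below that scaling's shift of the median gene, 1.48. Per ERCC count 0 Vha genes were called between 36 and 50 h in place of 4. The differences of Vha55, Vha68-2, VhaAC39-1 and VhaM9.7-b were then larger, at 1.85, 1.58, 2.02 and 2.04 on the log2 scale. That scaling moved the median gene by 1.1 there, and over all genes 148 were called in place of 339. With 1 library left out, 7 to 10 Vha genes differed between ages, 0 were called from 24 to 36 h, 1 to 4 from 36 to 50 h, 0 from 50 to 84 h and 4 to 10 from 24 to 84 h, and 0 to 2 paralog ratios differed between ages. Leaving out a library also removes residual degrees of freedom; otherwise the cause was not tested.

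The replicate numbers did not meet the rule for pairing, since not every same-numbered pair of different ages correlated above 0.1 in its deviations from the age means (18 pairs, -0.0943 to 0.164, median 0.0381; pairs of different numbers, -0.132 to 0.137, median -0.0167). Of the 12 libraries 7 correlated best with their own number, which 3 of the 9 candidates of each carry; this is a hint from the data, not the design. With the replicate block, 11 Vha genes differed between ages, 0 were called from 24 to 36 h, 5 from 36 to 50 h, 0 from 50 to 84 h and 11 from 24 to 84 h, and 2 paralog ratios differed. Over all genes the counts with the block were 1681 between ages and then 119, 447, 271 and 1615.

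Counts over all genes moved more. From 24 to 36 h the 72 called genes became 20 per ERCC count, 247 with no filter, 119 with the replicate block, 23 with sorted cells, 198 with DESeq2 and 28 on TPM. From 36 to 50 h 339 became 148 per ERCC count, 541 with no filter, 578 with those ages alone and 528 with DESeq2. From 50 to 84 h 244 became 33 per ERCC count and 113 on TPM. Per ERCC count 1504 from 24 to 84 h became 2377, and the 1556 over all ages became 2780. With 1 library left out these 5 counts, in time order with the longest span and all ages last, ranged over 29 to 180, 157 to 444, 112 to 263, 938 to 1598 and 1203 to 1739.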

Other observations

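The 24 h replicate 2 library was the highest of the 12 for Vha100-1 (107.5 CPM), VhaM9.7-c (22.0 CPM), Vha36-3 (7.53 CPM) and Vha16-1 (1400 CPM), and had no count on Vha68-1, Vha68-3 or VhaPPA1-2. It also had the fewest gene counts per ERCC count (105.5) and the most of the glial genes moody (31.0 CPM, against at most 8.09 elsewhere) and repo (5.53 CPM, against at most 2.97) and of the neuronal gene Syx1A (468 CPM). The rest of the glial list was not high there. Eaat1 was at 127 CPM, against 196 and 165 in the other 24 h libraries, and alrm at 1.84, against 3.59 and 3.2. Its gcm value of 0.614 CPM lay between theirs of 0 and 1.71, and Gs2 and wrapper had no count. The glial sum of this library, 166 CPM, was the lowest of 24 h. The part of glia or neurons in its Vha values was not tested. VhaAC39-2, a second d gene, had counts in all 3 libraries of 50 h, at 0.396 to 0.629 CPM, and in 84 h replicates 2 and 3, at 0.301 and 0.347 CPM, and none in the 24 and 36 h libraries; these values are at or below the floor of 3 counts and were not tested.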
